A study of Mus musculus with 2 samples.

Results

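The integrin subunits of T cells were followed as 10 genes, picked by symbol among the 23282 gene rows of the count tables because their products are the alpha and beta chains through which T cells signal to focal adhesion kinase (FAK). They comprise 6 alpha chains (*Itgal*, *Itga4*, *Itga5*, *Itga6*, *Itgae* and *Itgav*) and 4 beta chains (*Itgb1*, *Itgb2*, *Itgb3* and *Itgb7*), and each symbol matched 1 row. All 10 passed the expression minimum, which was a log2(normalized count + 1) of at least 4 in at least 1 library.

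Both libraries came from naïve CD4 T cells of the spleen of *Fak* fl/fl mice, in which part of the *Fak* gene is flanked by loxP sites. According to the study's methods, naïve T cells were taken from young female mice and activated before transduction. One culture received the control retrovirus (an empty MIEG3 vector, control) and the other a retrovirus carrying Cre recombinase (RV-Cre), which removes the floxed part of *Fak*. Both were grown for 3 days on bound antibody to CD3ε (10 μg/ml) with antibody to CD28 (5 μg/ml), IL-6 (50 ng/ml), TGFβ1 (1 ng/ml), TNFα (1 ng/ml), IL-1β (2 ng/ml) and antibodies to IFNγ and IL-4 (5 μg/ml each), and GFP+ cells were sorted. WT is the genotype given for the control cells, whereas the sample's title names floxed cells with the control virus, and the title was followed. Cre and the loss of *Fak* came together in 1 library, so that they cannot be told apart here.

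An integrin is a pair of an alpha and a beta chain that spans the membrane. Its outer part holds the matrix or another cell, and its beta tail binds talin and kindlin inside the cell, where FAK is recruited. In T cells, αL with β2 forms LFA-1, which binds ICAMs on antigen-presenting cells and endothelium, and α4 pairs with β1 (VLA-4, a receptor of VCAM-1 and fibronectin) or with β7 (a receptor of MAdCAM-1 of gut vessels). The β1 chain also takes α5 (a fibronectin receptor), α6 (a laminin receptor) and αv. The β7 chain also takes αE, or CD103, which binds E-cadherin of epithelium. The αv chain with β3 binds vitronectin and other matrix proteins.

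Counted reads numbered 13799264 for control and 12305010 for RV-Cre. The libraries were prepared with a kit that reads the 3′ end of transcripts, so that a count does not grow with transcript length. Other differences between genes in how reads are mapped and counted were not corrected, so orders and ratios between genes are those of reads. Levels below are counts divided by TMM size factors (1.06 and 0.941). There was 1 library per condition, so no p-value is given, no difference has a replicate check, and each 95% interval of a ratio (exact Clopper-Pearson, on the split of reads) covers counting error only. *Ptk2*, the symbol of *Fak*, had 110 reads in control and 31 in RV-Cre cells, a ratio of 0.318 (95% interval 0.206 to 0.477). Its counts come from the 3′ end and which exon is floxed is not given in the sources used here, so they do not check the deletion itself. All 10 T cell markers passed the minimum, with 28054 and 32269 reads in sum, *Cd4* having 1489 and 1342. Among these markers *Cd3d* and *Cd3e* passed 2-fold upwards (ratios 2.30 and 2.24), while *Cd5*, named after its values were seen, lay just short of 2-fold downwards (3800 and 1696 reads, ratio 0.504). The 6 CD8 and NK cell markers had 710 and 942 reads in sum, 4 of them being past the minimum. *Cd8a* (322 and 580 reads) and *Cd8b1* (122 and 274) passed 2-fold upwards, and *Klrd1* (240 and 57) passed it downwards. In these bulk samples, fewer cells that make a transcript and less transcript per cell cannot be told apart.

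*Itgal* and *Itgb2*, the chains of LFA-1, had the highest levels of the 10 genes in both libraries, *Itgal* leading in control and *Itgb2* in RV-Cre cells. The RV-Cre library held less *Itgal*, somewhat less *Itgb1*, more *Itga4*, *Itga6*, *Itgav* and *Itgb7*, and several times more *Itgb3* than the control library. By the 2-fold rule (a difference in log2(normalized count + 1) of at least 1 in either direction), 1 of the 10 genes was higher (*Itgb3*) and 1 was lower (*Itga5*). The rule calls 14.2% of all 12112 genes past the minimum higher and 12.3% lower. The counting interval lay wholly above a ratio of 1 for 5 of the 10 subunits and wholly below it for 3, against 36.7% and 38.1% of all genes. With 10 genes these counts are close to the background. The median log2 ratio of the 10 was 0.19, beside -0.01 over all genes.

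**Figure D1:**
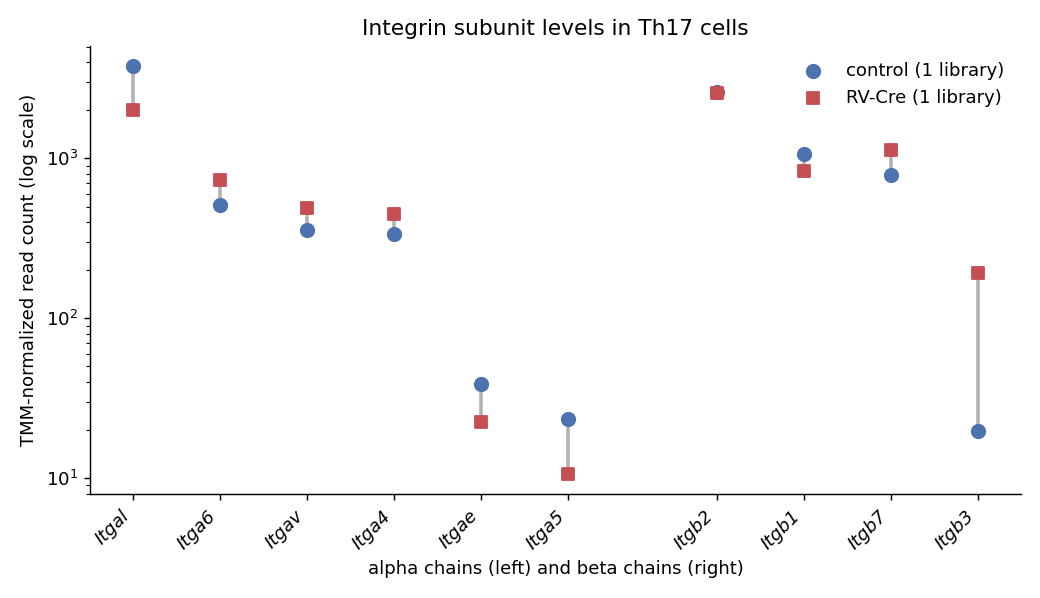
TMM-normalized read counts (log scale) of the 6 alpha chains and 4 beta chains in the control library (circles) and the RV-Cre library (squares), 1 library each and therefore without error bars. *Itgal* goes from 3768 to 2005, *Itgb2* from 2613 to 2550 and *Itgb3* goes from 19.8 to 191.2.

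*Itgal* had 4003 reads in control and 1887 in RV-Cre cells, normalized levels of 3768 and 2005. The RV-Cre level was 0.532 of the control level (95% interval 0.503 to 0.562, log2 ratio -0.91), short of the 2-fold rule. Among genes with a mean log2 value of at least 8, to which *Itgal* belongs, the 2-fold rule called 7.6% lower and 3.74% higher, and the middle of their log2 ratios ran from -0.47 (25th percentile) to 0.31 (75th percentile). *Itgal* lay below this range. By reads it was the 548th gene row of the control library and the 1130th of the RV-Cre library. Its partner *Itgb2* had 2776 and 2400 reads, normalized levels of 2613 and 2550 and a ratio of 0.976 (95% interval 0.923 to 1.03), and its direction turned with 3 of the 5 other scalings. The αL chain therefore had 1.44 reads for each β2 read in control and 0.786 in RV-Cre cells. This ratio within a library needs no scaling between libraries, and it changed by a factor of 0.545 (exact conditional 95% interval 0.504 to 0.590). *Itgal* lies at chr7:127296260-127335138 on the plus strand and *Itgb2* at chr10:77530252-77565708 on the plus strand, and no other annotated gene overlaps either.

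The β1 chain, shared by the receptors of fibronectin, VCAM-1 and laminin, was lower in the RV-Cre library. *Itgb1* had 1133 and 786 reads, normalized levels of 1067 and 835.0, a ratio of 0.783 (95% interval 0.714 to 0.858), and its log2 ratio was below 0 with every scaling except that to *Gapdh*. Of the alpha chains that pair with β1, *Itga6* was the most abundant, with 542 and 693 reads and normalized levels of 510.2 and 736.2. The ratio of *Itga6* was 1.44 (95% interval 1.29 to 1.62). For *Itga4* the reads numbered 360 and 424, the normalized levels were 338.9 and 450.4 and the ratio was 1.33 (95% interval 1.15 to 1.53). *Itga5*, the α5 chain of the fibronectin receptor, stood at 25 and 10 reads, near the bottom of the 10, with a ratio of 0.451 (95% interval 0.193 to 0.973). Genes of few reads pass the 2-fold rule often, and in the range of mean log2 values between 4 and 6, where *Itga5* lies, it called 19% lower. The ranges of abundance for *Itga5* and for *Itgb3* further on were chosen after the values were seen. With a 99% interval the *Itga5* ratio ran from 0.147 to 1.20. Relative to *Itgb1*, the 3 abundant partners all had more reads in RV-Cre cells. There were 0.478 *Itga6* reads per *Itgb1* read in control and 0.882 in RV-Cre cells, a change by a factor of 1.84 (95% interval 1.59 to 2.14). *Itga4* went from 0.318 to 0.539 per *Itgb1* read (factor 1.70, 95% interval 1.43 to 2.01) and *Itgav* from 0.335 to 0.590 (factor 1.76, 95% interval 1.49 to 2.09).

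*Itgb7*, which makes gut-homing α4β7 and the CD103 integrin, moved the other way from *Itgb1*. It had 841 and 1056 reads, normalized levels of 791.7 and 1122 and a ratio of 1.42 (95% interval 1.29 to 1.55). The order of the β1 and β7 transcripts was thereby opposite in the libraries, with 0.742 *Itgb7* reads per *Itgb1* read in control and 1.34 in RV-Cre cells (factor 1.81, 95% interval 1.59 to 2.06). Relative to β7, the α4 chain did not differ beyond counting error, at 0.428 and 0.402 *Itga4* reads per *Itgb7* read (factor 0.938, 95% interval 0.791 to 1.11). *Itgae*, the CD103 alpha chain, was scarce, with 41 and 21 reads and normalized levels of 38.6 and 22.3. The ratio of *Itgae* was 0.578, with an interval from 0.324 to 1.001 that just held 1. Per *Itgb7* read, *Itgae* went from 0.0488 to 0.0199 reads (factor 0.408, 95% interval 0.227 to 0.713).

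*Itga4*, *Itga6*, *Itgav* and *Itgb7* had ratios close to each other, from 1.33 to 1.44, and all 4 stayed above a ratio of 1 with each of the 6 scalings. These 4 were set side by side after their values were seen, because the ratios were alike, so the following factors are a description. Set against *Itga4*, the changes of *Itga6* (factor 1.09, 95% interval 0.903 to 1.30), *Itgav* (factor 1.04, 95% interval 0.851 to 1.27) and *Itgb7* (factor 1.07, 95% interval 0.899 to 1.26) had intervals that held 1 and that allow differences of up to 1.30-fold. Their log2 ratios lay between the 70.3th and the 74.8th percentile of all genes past the minimum, so that changes of this size were common in these libraries.

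**Figure D2:**
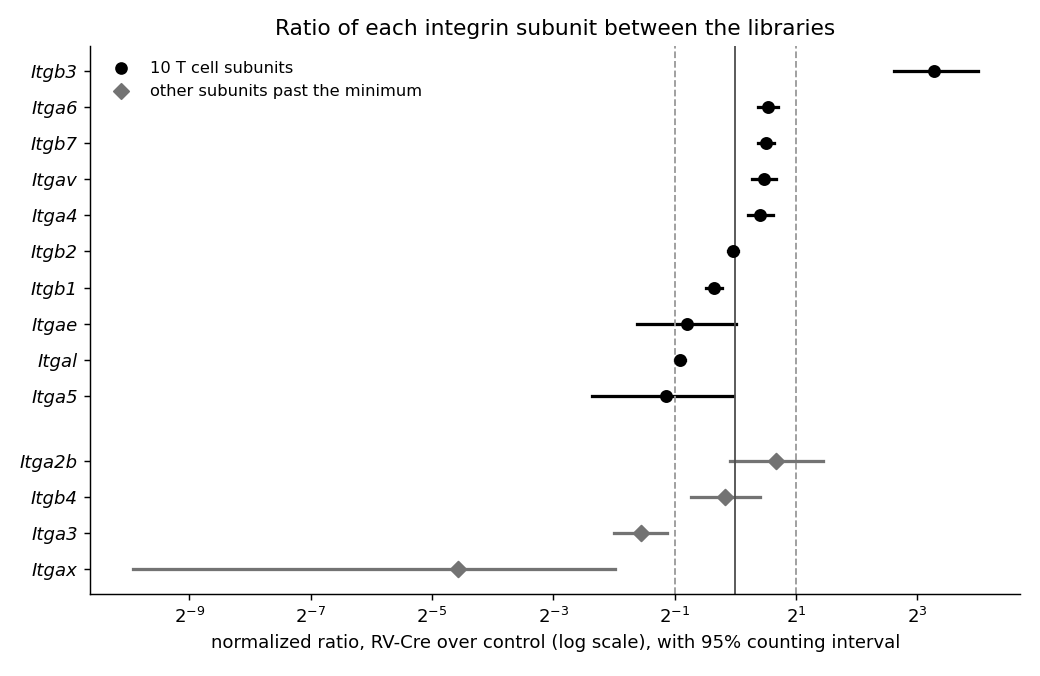
Normalized ratio of RV-Cre over control (log scale) for the 10 subunits (circles) and the 4 other integrin subunits past the minimum (diamonds), with bars for the 95% counting interval, a solid line at 1 and dashed lines at 2-fold in each direction. *Itgb3* at 9.67 stands beyond 2-fold with its whole interval, and *Itga4*, *Itgav*, *Itgb7* and *Itga6* sit together from 1.33 to 1.44.

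The RefSeq promoter table (GRCm38.p6) held 5 of the 10 genes. The 250 bases before the RefSeq start are shown for *Itgb7*, *Itga4* and *Itgav*, whose ratios were alike, and for *Itgb1*, which moved the other way. Capitals mark the letters CACCC and their complement GGGTG, the core of sites bound by KLF zinc finger factors, searched on both strands without overlap. The motif was chosen after the values were seen.
Itgb7 (chr15:102231936-102232185, minus strand): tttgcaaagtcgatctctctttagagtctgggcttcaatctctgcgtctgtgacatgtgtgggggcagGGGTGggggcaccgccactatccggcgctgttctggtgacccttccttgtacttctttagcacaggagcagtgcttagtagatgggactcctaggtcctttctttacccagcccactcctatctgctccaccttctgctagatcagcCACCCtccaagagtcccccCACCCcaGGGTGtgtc
Itga4 (chr2:79255176-79255425, plus strand): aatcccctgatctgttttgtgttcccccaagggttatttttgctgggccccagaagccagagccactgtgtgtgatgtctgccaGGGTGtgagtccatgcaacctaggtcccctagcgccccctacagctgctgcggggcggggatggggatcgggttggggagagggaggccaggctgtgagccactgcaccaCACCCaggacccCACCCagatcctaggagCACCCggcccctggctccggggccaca
Itgav (chr2:83724147-83724396, plus strand): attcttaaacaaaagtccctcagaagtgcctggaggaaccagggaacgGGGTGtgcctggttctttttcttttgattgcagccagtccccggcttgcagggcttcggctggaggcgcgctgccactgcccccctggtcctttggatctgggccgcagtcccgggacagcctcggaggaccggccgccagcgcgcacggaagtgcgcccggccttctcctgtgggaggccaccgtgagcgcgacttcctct
Itgb1 (chr8:128685404-128685653, plus strand): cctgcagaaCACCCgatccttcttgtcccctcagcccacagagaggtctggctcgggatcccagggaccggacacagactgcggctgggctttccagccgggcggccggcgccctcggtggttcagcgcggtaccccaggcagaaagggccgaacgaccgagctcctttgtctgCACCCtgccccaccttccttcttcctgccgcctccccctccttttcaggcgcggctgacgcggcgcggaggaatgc

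The *Itgb7* and *Itga4* windows held 4 matches each, the *Itgb1* window 2 and the *Itgav* window 1, while that of *Itga5* held 0. Of the 32851 promoters in the table, 52.0% held at least 1 match and 1.92% at least 4. These shares were not matched for base composition. With a motif chosen after the values were seen, they are a description and no test. The windows also differed in base composition, *Itgb1* having 21 CpG and 68.0% GC and *Itgav* 18 CpG and 64.4% GC, against 6 CpG and 64.0% GC for *Itga4* and 5 CpG and 56.0% GC for *Itgb7*. The median promoter had 6 CpG and 52.4% GC. A match describes letters only and shows no bound factor.

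*Itgb3*, the β3 chain of the vitronectin receptor, had the largest difference of the 10. It had 21 reads in control and 180 in RV-Cre cells, normalized levels of 19.8 and 191.2, and the RV-Cre level was 9.67 times the control level (95% interval 6.14 to 16.0, log2 ratio 3.21). Its log2 ratio exceeded that of 97.6% of the genes past the minimum. At its abundance, with mean log2 values between 5 and 7, the 2-fold rule called 17.3% higher, and the median log2 ratio in that range was 0.03. The partner αv differed far less, *Itgav* having 379 and 464 reads, normalized levels of 356.8 and 492.9 and a ratio of 1.38 (95% interval 1.20 to 1.59). There were thus 18.0 *Itgav* reads for each *Itgb3* read in control and 2.58 in RV-Cre cells, a change by a factor of 0.143 (95% interval 0.0847 to 0.231). *Itgb3* lies at chr11:104608000-104670476 on the plus strand and no annotated gene overlaps it.

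The β3 chain is also made by platelets, where it pairs with αIIb, and by cells of the myeloid lineage, so the markers of these and other cell types were summed beside it. Beside the calls that follow, the 2-fold rule calls 14.2% of all genes past the minimum higher and 12.3% lower. The 8 platelet markers had 110 and 206 reads in sum, with 4 past the minimum, 2 of them higher by the 2-fold rule. Among them *Itga2b*, the αIIb chain, had 27 and 38 reads and *Pf4* 52 and 99. *Ppbp* had 7 and 39 reads (ratio 6.29, 95% interval 2.78 to 16.7) and *Gp1ba* 4 and 14, while *Gp1bb* had 17 and 14, *Treml1* was at 2 in both libraries, *Gp6* at 0 in both and *Gp9* at 1 and 0. The 9 myeloid markers had 138 and 299 reads, with 6 past the minimum, 3 of them higher by that rule and 1 lower. *Csf1r* had 16 and 110 reads and *S100a8* 6 and 69, whereas *Lyz2* had 22 and 7 and *Cd68*, the most abundant of them in control cells, 63 and 58. The other myeloid markers were *S100a9* with 7 and 17 reads, *Cd14* with 14 and 21, *Fcgr1* with 7 and 9, *Adgre1* with 0 and 8 and *Cd33* with 3 and 0. Most of the difference in the myeloid sum thus came from *Csf1r* and *S100a8*. The 8 stromal and endothelial markers had 23 and 116 reads, with 2 past the minimum, both higher. *Col1a1*, a collagen chain, had 10 and 66 reads (ratio 7.45, 95% interval 3.81 to 16.2) and *Kdr*, the VEGF receptor of endothelium, 9 and 39 (ratio 4.89, 95% interval 2.33 to 11.5), while *Pdgfrb* and *Tek* were at 0 in both libraries. The 6 B cell markers had 66 and 145 reads, with 5 past the minimum, 3 of them higher, while *Cd79b* had 18 and 11 reads and *Pax5* was at 0 in both libraries. The normalized sums of the platelet, myeloid, stromal and B cell markers were 2.11 to 5.69 times the control level, beside 1.497 times for the CD8 and NK cell markers and 1.30 times for the T cell markers, and their part in the *Itgb3* difference was not tested.

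**Figure D3:**
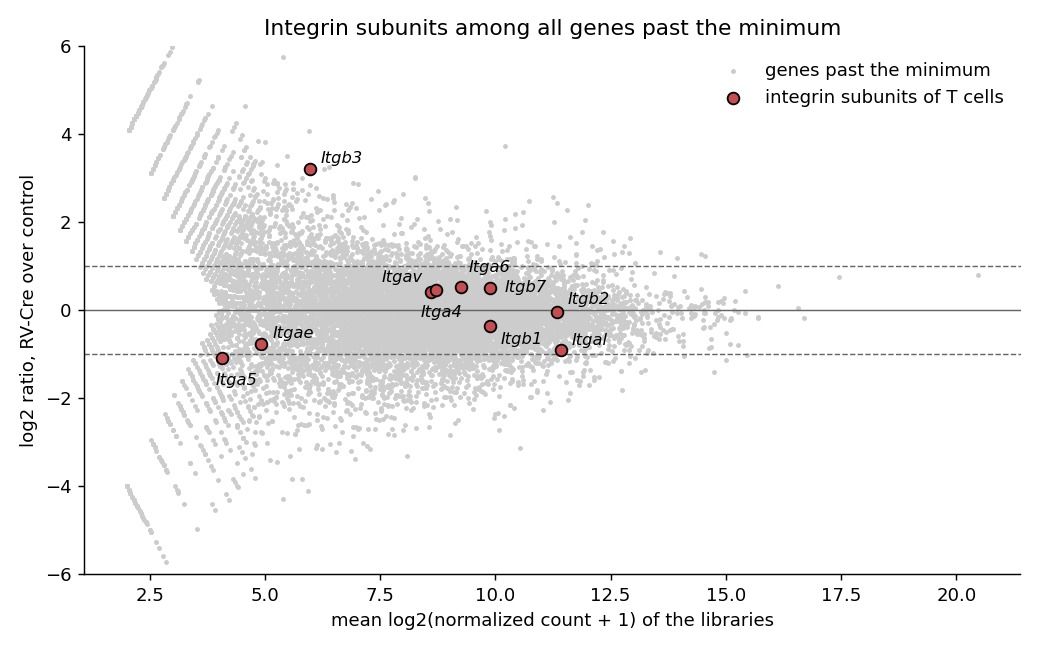
Log2 ratio of RV-Cre over control against the mean log2(normalized count + 1) for the genes past the minimum (grey) and the 10 integrin subunits (red), with dashed lines at 2-fold. The vertical axis ends at 6 in each direction, which leaves out 5 genes. *Itgb3* lies at 3.21, above 97.6% of the genes past the minimum, and the other subunits lie between -1.08 and 0.53.

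Within each library the make-up of the integrin reads could be compared without any scaling. Of the 5350 alpha chain reads of the control library, *Itgal* held 74.8% (exact binomial 95% interval 73.6 to 76.0), and of the 3499 of the RV-Cre library it held 53.9% (52.3 to 55.6). The other abundant alpha chains held larger shares in the RV-Cre library. *Itga6* went from 10.1% (9.33 to 10.97) to 19.8% (18.5 to 21.2), *Itgav* from 7.08% (6.41 to 7.80) to 13.3% (12.2 to 14.4) and *Itga4* from 6.73% (6.07 to 7.43) to 12.1% (11.1 to 13.2). The scarce chains *Itgae* (0.766% and 0.6002%) and *Itga5* (0.467% and 0.286%) had overlapping intervals in the libraries.

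Of the 4771 (control) and 4422 (RV-Cre) beta chain reads, *Itgb2* held 58.2% (56.8 to 59.6) and 54.3% (52.8 to 55.8). *Itgb1* went from 23.7% (22.5 to 24.98) to 17.8% (16.7 to 18.9) and *Itgb7* from 17.6% (16.6 to 18.7) to 23.9% (22.6 to 25.2). *Itgb3* went from 0.440% (0.273 to 0.672) to 4.07% (3.51 to 4.70). The alpha chains together had 1.12 reads per beta chain read in control and 0.791 in RV-Cre cells, a change by a factor of 0.706 (95% interval 0.665 to 0.749). The summed level of the 10 genes was 0.883 of the control level (95% interval 0.857 to 0.910), opposite in direction to their median log2 ratio, and without *Itgal* the sum was 1.11 times the control level (95% interval 1.07 to 1.15). With scaling to *Gapdh* the sum of the 10 was 1.18 times the control level, and the other 5 scalings kept it between 0.875 and 0.945.

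**Figure D4:**
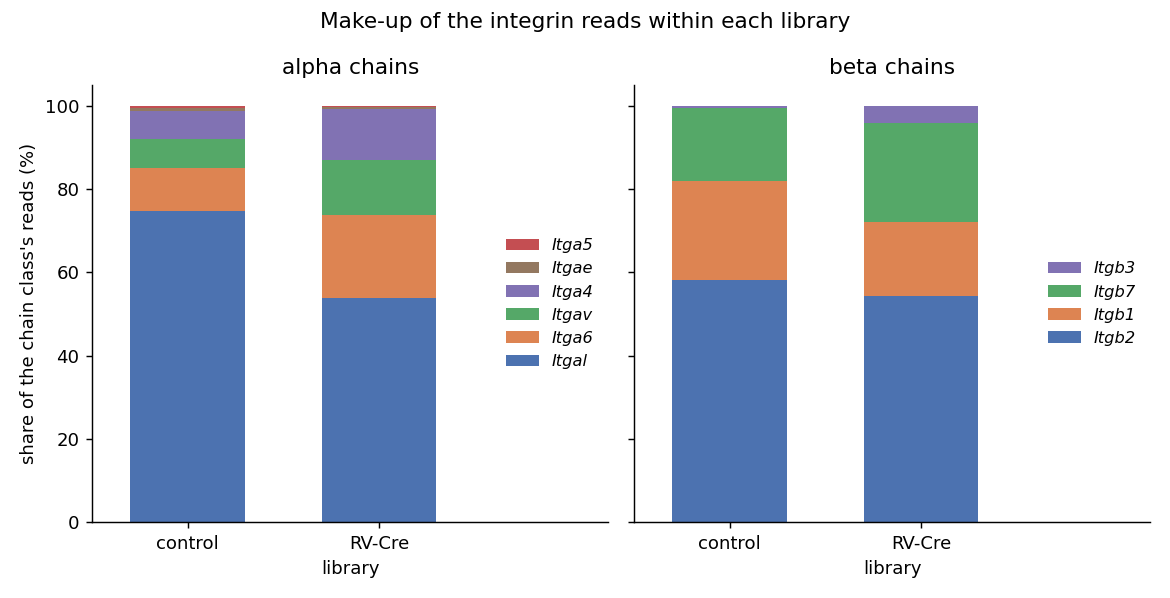
Share of reads (percent) held by each alpha chain (left) and beta chain (right) in the control and RV-Cre libraries, each bar adding to all reads of that chain class in 1 library. The *Itgal* part goes from 74.8% to 53.9%, and the *Itgb7* part from 17.6% to 23.9% and that of *Itgb1* from 23.7% to 17.8%.

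Ordered by level in the control library, the alpha chains ran *Itgal*, *Itga6*, *Itgav*, *Itga4*, *Itgae* and *Itga5*, and the same order held in the RV-Cre library. The intervals of the shares of *Itgav* and *Itga4* overlapped in each library, and so did those of *Itgae* and *Itga5*. The beta chains ran *Itgb2*, *Itgb1*, *Itgb7* and *Itgb3* in the control library, with *Itgb7* above *Itgb1* in the RV-Cre library, and no neighbours overlapped in their intervals.

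Other annotated genes touch some of the subunits, and whether counting used strand is not given in the sources used here. *Itga4* (chr2:79255426-79333123, plus strand) shares exon bases at its 3′ end with *Cerkl* on the minus strand, which had 39 and 55 reads. *Itgae* (chr11:73090583-73147446, plus strand) holds the mitotic kinase gene *Haspin*, listed as *Gsg2*, on the minus strand between its exons. *Gsg2* had 254 and 65 reads, more than *Itgae* in both libraries, with a ratio of 0.289, and its part in the *Itgae* counts was not tested. *Itga6* (chr2:71745616-71858416, plus strand), *Itgav* (chr2:83724397-83806916, plus strand) and *Itga5* (chr15:103344286-103366763, minus strand) overlap noncoding genes or pseudogenes that have no row in the tables. *Itgb1* (chr8:128685654-128733200, plus strand) and *Itgb7* (chr15:102215995-102231944, minus strand) overlap none.

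Of the 17 other integrin subunits, 4 passed the minimum, and of these the 2-fold rule called 0 higher and 2 lower. Over all genes it called 14.2% higher and 12.3% lower. *Itga3*, the α3 chain of a laminin receptor, was the most abundant, with 199 and 60 reads, normalized levels of 187.3 and 63.7 and a ratio of 0.340 (95% interval 0.251 to 0.456). *Itgax*, the CD11c chain of myeloid cells, had 27 reads and 1 read, a ratio of 0.0418 (95% interval 0.00102 to 0.254). *Itgb4*, the partner of α6 in epithelium, had 62 and 49 reads (ratio 0.892, 95% interval 0.6004 to 1.32), and *Itga2b* had a ratio of 1.59 (95% interval 0.945 to 2.70). The intervals of these last subunits held 1. The median log2 ratio of the 4 was -0.85. With 3 of the other scalings *Itga11* also passed the minimum, and the median, then the value of *Itgb4* as the middle of 5 genes, was -0.07 with upper quartile factors, -0.07 with library totals without *Rn45s* and 0.25 with scaling to *Gapdh*.

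The list of genes that regulate integrin activation from inside the cell or bind integrin tails held activators as well as inhibitors. Of the 24 listed, 21 passed the minimum, with 5 called higher, 2 called lower and a median log2 ratio of 0.42. Of all genes, 14.2% were called higher and 12.3% lower. At a mean log2 value of at least 8, where *Cytip*, *Skap1* and *Rap1b* of this list lie, 3.74% were called higher and 7.6% lower. The counting interval lay wholly above 1 for 11 of the 21 and wholly below it for 7, against 36.7% and 38.1% of all genes. *Cytip*, which restrains cytohesin-driven adhesion through LFA-1, had 2956 and 8994 reads (ratio 3.43, 95% interval 3.29 to 3.58). *Rasgrp2*, the exchange factor that loads RAP1 with GTP, had 128 and 379 reads (ratio 3.34, 95% interval 2.73 to 4.12), and the adaptor *Skap1* had 424 and 1030 (ratio 2.74, 95% interval 2.45 to 3.08). *Rap1b*, one of the RAP1 GTPases themselves, was lower, with 6628 and 2911 reads (ratio 0.496, 95% interval 0.474 to 0.518). Proteins that bind the beta tail are named here after their values were seen. Filamin A (*Flna*) was called higher, with 1917 and 3705 reads (ratio 2.18), and talin-2 (*Tln2*) was called lower, with 24 and 5 (ratio 0.235). The intervals of *Itgb1bp1* (0.893 to 1.11) and *Dok1* (0.823 to 1.10) held 1. The more abundant talin and kindlin lay short of 2-fold on opposite sides. Talin-1 (*Tln1*) had 2687 and 4638 reads (ratio 1.95, 95% interval 1.86 to 2.04), and kindlin-3 (*Fermt3*) had 2782 and 1363 (ratio 0.553, 95% interval 0.518 to 0.590).

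Of 27 listed genes of the adhesion complex that FAK joins, 23 passed the minimum. By the 2-fold rule 1 was called higher (*Tns3*, with 2 and 17 reads, named after its values were seen) and 1 lower (*Ptk2* itself). The rule calls 14.2% of all genes higher and 12.3% lower. The counting interval lay wholly above 1 for 12 of the 23 and wholly below it for 5, against 36.7% and 38.1% of all genes. The median log2 ratio was 0.14. Pyk2 (*Ptk2b*), the kinase most like FAK, had 1779 and 1731 reads and a ratio of 1.10 (95% interval 1.03 to 1.17), and was named after its values were seen. Of the 24 integrin ligands, 12 passed the minimum, with 3 called higher, 2 called lower and a median log2 ratio of 0.38. *Lamc1*, a laminin chain, had 210 and 59 reads (ratio 0.317, 95% interval 0.233 to 0.425). The other ligand called lower was *Icam4*, with 17 reads and 1 read. Those called higher were *Cdh1* (6 and 26 reads) and the laminin chains *Lama2* (0 and 23) and *Lamb1* (11 and 33). Except for *Lamc1*, these ligands were named after their values were seen. *Icam1*, a ligand of LFA-1, had 668 and 596 reads (ratio 1.01, 95% interval 0.900 to 1.13), and was also named after its values were seen.

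All 14 surface proteins that sit beside integrins passed the minimum, 2 of them called higher and 0 lower, with a median log2 ratio of 0.23. The share called higher is close to the 14.2% of all genes, and 12.3% of all genes were called lower. Among genes with a mean log2 value of at least 8, as *Cd53* had, 3.74% were called higher and 7.6% lower. The counting interval lay wholly above 1 for 7 of the 14 and wholly below 1 for 4, against 36.7% and 38.1% of all genes. These 4, named after their values were seen, were *Cd44*, a hyaluronan receptor (ratio 0.576), *Slc7a5* (0.551), *Slc3a2* (0.625) and *Cd81* (0.830). The tetraspanin *Cd53* had 1195 and 2901 reads (ratio 2.74, 95% interval 2.56 to 2.93) and the tetraspanin *Cd63* 102 and 224 (ratio 2.48, 95% interval 1.95 to 3.16). Scaling to *Gapdh*, which moved the median over all genes to 0.43, gave medians, over the genes past the minimum under it, of 0.84 (activation), 0.56 (adhesion complex), 1.00 (ligands) and 0.65 (surface partners). The lists are descriptions without a test.

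**Figure D5:**
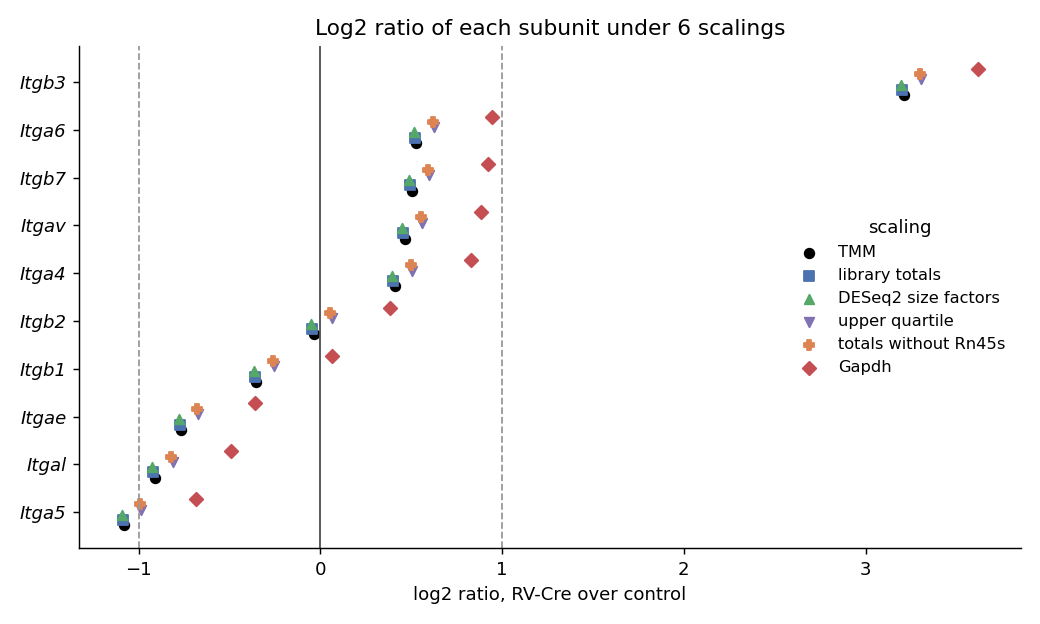
Log2 ratio of RV-Cre over control for each of the 10 subunits under 6 scalings of the libraries (symbols), with a solid line at 0 and dashed lines at 2-fold. *Itgb1* crosses 0 with scaling to *Gapdh* only and *Itgb2* with 3 of the scalings, while the other 8 keep their side of 0.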

How the data were processed

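The authors deposited raw counts of reads per gene symbol, without normalization, for 1 control and 1 RV-Cre library made from 500 ng of total RNA with a QuantSeq kit. The submitters' processing notes name the build mm10, bcl2fastq 2.20.0.422, Bowtie2 and bedtools. Filters, annotation and strand setting are not given in the sources used here. Of 23282 rows, 79 share a symbol with another row and were left out of gene lists. Counts were divided by TMM size factors (edgeR 4.0.16, R 4.3.3), and printed ratios are ratios of normalized counts without a pseudocount. Log2 ratios are differences of log2(normalized count + 1), which lie closer to 0 for genes of few reads. The expression minimum was a log2 value of 4 (15 normalized reads) in at least 1 library, and a gene was called at a log2 ratio of at least 1 or at most -1 on that scale. With 1 library per group no test across genes was possible. Intervals came from scipy 1.17.1. They cover counting error only and treat reads as independent. Reads without molecular identifiers are not independent molecules, so the intervals may be too narrow. The procedure was run on simulated counts with counting error only, with changes planted in genes of more reads than *Itga5* or *Itgae*. This checks the calculation and not variation between libraries.

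The members and lists were chosen with earlier results of these data known. Named genes were the 10 subunits, *Ptk2*, other subunits past the minimum, overlapping genes, genes used for scaling, and defining markers, up to 3 genes per list and direction that were called with a log2 value of at least 6. Others are marked as named after their values were seen. Gene positions came from GENCODE M21 (GRCm38, the assembly of mm10) and promoters from RefSeq GRCm38.p6. Alternatives were 5 other scalings (library totals, DESeq2 1.42.0 size factors, upper quartile, totals without *Rn45s*, and *Gapdh*), pseudocounts of 0.1 and 10, no minimum or a minimum of 6, fold thresholds of 1.5 and 3, a 99% interval, and shares over all integrin subunits.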

Additional observations from a re-analysis of the deposited data

How the results depend on the processing

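No paired analysis was possible because control and RV-Cre cells were each sequenced once, and for the same reason no library could be left out. The count of subunits at least 2-fold higher was 1 with every alternative run. The count at least 2-fold lower rested on *Itga5* and its 25 and 10 reads. It was 0 with upper quartile factors, library totals without *Rn45s*, scaling to *Gapdh*, a pseudocount of 10, a log2 minimum of 6 or a fold threshold of 3, and 3 with a fold threshold of 1.5. The median log2 ratio of the subunits was 0.60 with scaling to *Gapdh* and 0.44 with a log2 minimum of 6, which leaves out *Itga5* and *Itgae*. *Gapdh* itself had 956 and 634 reads, and scaling to it moved the median over all genes from -0.01 to 0.43 and the calls over all genes from 1720 higher and 1491 lower to 2960 higher and 780 lower. With it *Itgb1* changed sign, to 0.0649, and *Itgb2* was at 0.38, both below that shift. *Itgb2* was at 0.06 with upper quartile factors and 0.05 without *Rn45s*, a gene of ribosomal RNA that held 8.50% of control and 14.6% of RV-Cre reads. *Itgal* stayed between -0.92 and -0.49 over all scalings and *Itgb3* between 3.20 and 3.62. With a 99% interval the *Itga5* ratio no longer excluded 1, its fold being the same. Over all integrin subunits in place of the 10, *Itgal* held 70.9% (control) and 51.8% (RV-Cre) of alpha chain reads, and the other 18 shares stayed within their intervals. The depth limits *Itga5*, *Itgae* and *Itgb3*, each with at most 41 reads in the control library.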

Other observations

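Several integrin subunits that T cells seldom use were seen in 1 library only. The subunits of this paragraph were named after their values were seen. *Itga11*, a collagen receptor chain, had 0 reads in control and 14 in RV-Cre cells, and the 95% counting interval of its ratio began at 3.74. *Itgb8*, a partner of αv that frees active TGFβ, had 0 and 4 reads. *Itgad*, a partner of β2 in macrophages, had 10 and 0 reads (95% counting interval of the ratio up to 0.503), and *Itgb6*, an epithelial partner of αv, had 7 and 0 (up to 0.783). None of the 4 reached the expression minimum, and neither did *Itga1*, with 0 and 2 reads. *Itgam*, the CD11b chain of myeloid cells, had 7 and 3 reads (ratio 0.484, 95% interval 0.0807 to 2.12). *Itga2*, a collagen receptor chain, and *Itgb2l* had 0 reads in both libraries.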
